A study of Homo sapiens with 4 samples.

Results

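The genes described here are 10 genes of the dense-core secretory granule and of prohormone processing, namely the granins CHGA, CHGB, SCG2, SCG3, SCG5 and VGF, the convertases PCSK1 and PCSK2, the carboxypeptidase CPE and the granule membrane protein PTPRN. They were chosen for their known function, with earlier results of these data known, and were found by gene symbol. Each matched 1 of the 69222 gene identifiers in the files. Of the 10, 5 had enough reads for a test among 20319 genes tested in all. RNA came from HEK293T, a human embryonic kidney line carrying the SV40 large T antigen, and was enriched for poly(A) transcripts. Cells of the knockdown group (shRPRD1B, 2 libraries) carried a lentiviral short hairpin RNA (shRNA) against RPRD1B, a protein that binds the phosphorylated tail of RNA polymerase II, and cells of the control group (shCtrl, 2 libraries) carried a lentiviral control shRNA. All 4 libraries thus came from transduced cells, and the sources used here do not give the number of hairpins per target, their sequences or the time after transduction. Nothing in the labels says that replicates were separate cultures, so a p-value here covers only how these samples vary, possibly for technical reasons.

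Total counts were 65572391 and 54722140 in the shRPRD1B libraries, against 47732913 and 48494258 in the shCtrl libraries. The hairpin's target, RPRD1B, stood at 27.2 and 35.5 CPM (counts scaled to a common library size) in shRPRD1B 1 and 2, against 50.4 and 50.1 CPM in shCtrl 1 and 2. Each shRPRD1B value was the lower, with a log2 fold change of -0.68 ± 0.16 (SE) that edgeR's quasi-likelihood test did not call after Benjamini-Hochberg adjustment over all genes (adjusted p = 0.448) and DESeq2 did (adjusted p = 0.0467). The shRPRD1B libraries differed from each other more than the shCtrl libraries did: over 11541 genes of at least 5 CPM the log2 ratio between the libraries of a group had an SD of 0.463 in shRPRD1B and 0.245 in shCtrl. Markers fixed for the embryonic kidney line were all tested (9 genes), with a summed level of 447 and 369 CPM in shRPRD1B, against 448 and 442 CPM in shCtrl. VIM alone held 212 and 162 CPM of it in shRPRD1B, against 196 and 195 CPM in shCtrl. LHX1 stood at only 0.229 and 0.201 CPM in shRPRD1B, against 0.338 and 0.349 CPM in shCtrl. Of the 9, 2 had a positive and 7 a negative log2 fold change, where 50.5% of all tested genes were positive. Both shRPRD1B libraries lay below both shCtrl libraries for 6 of them, where 20.6% of all tested genes did.

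Dense-core granules store peptide hormones and neuropeptides in neurons and endocrine cells and release them on a calcium signal. Granins aggregate in the acidic, calcium-rich trans-Golgi network and help load the granule. Precursors are then cut at pairs of basic residues by the convertases, and CPE trims the basic residues left at the new ends. Kidney epithelial cells are not specialised for this kind of regulated secretion, and many granule genes are held silent outside neurons and endocrine cells by the repressor REST, whose binding element has a left part and a right part separated by a spacer. Several of them are also known targets of factors of the CREB family, which bind the cAMP response element.

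The stretches shown first are those of the members' promoters that hold the cAMP response element, because this word is what PCSK1, VGF and CHGA share outside their names, and the start of SCG3, the member with the largest fold change among those tested, because it holds both parts of the REST element. Promoter windows from 250 bases before to 50 bases after the RefSeq start (GRCh38.p14) were at hand for 8 of the 10 members. CHGB and SCG2 had no window, so they were not searched for any of these words. For PCSK1 and SCG3 the start is the outer end of the gene, while for VGF (101165569) and CHGA (92923150) it is a RefSeq start inside the gene's span. Capitals mark the words TGACGTCA, in the first 3 sequences, and TTCAGCACC and GGACAGC, in the last; each is written 5′ to 3′ on the strand of the gene.
PCSK1 chr5:96433292-96433351 (minus strand): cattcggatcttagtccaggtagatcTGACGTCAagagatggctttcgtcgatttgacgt
VGF chr7:101165615-101165674 (minus strand): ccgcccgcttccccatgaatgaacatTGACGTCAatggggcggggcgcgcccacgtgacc
CHGA chr14:92923070-92923129 (plus strand): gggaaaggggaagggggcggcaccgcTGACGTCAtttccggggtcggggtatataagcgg
SCG3 chr15:51681508-51681537 (plus strand): aacTTCAGCACCcacagggcGGACAGCgct

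Counted from these starts, the cAMP response element TGACGTCA began 77 bases before the start in PCSK1, 79 bases before it in VGF and 54 bases before it in CHGA. Its letters read the same on both strands, and it was present in 3 of the 8 members with a window and in 1.85% of all 35116 windows (2.25% of 27305 genes). The shorter word CGTCA, which TGACGTCA contains, was found on either strand in 8 of these 8 members, against 24.6% of all windows and 28.4% of genes. In SCG3 the left part TTCAGCACC and the right part GGACAGC of the REST element began 8 and 25 bases after the start, inside the first exon, with 8 bases between them. Searched on both strands, the left part was in 1 of the 8 members with a window (SCG3), against 0.376% of all windows and 0.469% of genes. The right part was in 4 of the 8 (PCSK1, PCSK2, SCG3 and VGF), against 6.03% of all windows and 7.33% of genes. Both parts occurred together in 24 windows of the whole table (0.0683%). The joined form TCAGCACC, any 3 bases, GACAG was in 0 of the 8 members, against 0.0427% of all windows and 0.0513% of genes. These matches describe letters in a window, not binding.

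Secretogranin III and chromogranin B were the granins with the largest fold changes among the 3 tested. SCG3 encodes a granin that binds chromogranin A and the cholesterol-rich granule membrane, and CHGB encodes one of the major soluble granule proteins. Both transcripts were scarce in control cells and several-fold more abundant in knockdown cells, and both were called higher by DESeq2 but not by edgeR.

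SCG3 (ENSG00000104112.9, chromosome 15, 51681503 to 51721026 in GRCh38, plus strand) had 486 and 708 counts in shRPRD1B 1 and 2, against 36 and 35 counts in shCtrl 1 and 2. In CPM this was 7.42 and 12.9 in shRPRD1B, against 0.76 and 0.719 in shCtrl, or 10.2 ± 3.89 CPM and 0.74 ± 0.0288 CPM (SD, n = 2 each). The control libraries lay close together, the knockdown libraries were both far above them and shRPRD1B 2 was the higher. The exact 95% Poisson intervals, which cover counting error only, ran from 6.77 to 8.11 and from 12 to 13.9 CPM in shRPRD1B and from 0.532 to 1.05 and from 0.501 to 1 CPM in shCtrl, so the gap between the shRPRD1B libraries was wider than counting error. The fitted difference was 13.7-fold, a log2 fold change of 3.77 ± 0.40 (SE, 95% interval 2.78 to 4.76). With edgeR the p was 0.000106 and the adjusted p over all genes 0.0775, with DESeq2 the adjusted p was 2.54e-20, and with limma voom it was 0.204. SCG3 ranked 20 among the 20319 genes by log2 fold change. As in any bulk sample, more cells with the transcript and more of the transcript per cell cannot be told apart.

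CHGB (ENSG00000089199.10, chromosome 20, 5911510 to 5925353, plus strand) had 223 and 284 counts in shRPRD1B 1 and 2, against 27 and 30 counts in shCtrl 1 and 2. Its level was 3.4 and 5.18 CPM in shRPRD1B, against 0.57 and 0.616 CPM in shCtrl (means 4.29 ± 1.26 and 0.593 ± 0.0329 CPM, SD, n = 2 each). As for SCG3, the groups did not overlap and shRPRD1B 2 was the highest library. The fitted difference was 7.16-fold, a log2 fold change of 2.84 ± 0.37 (95% interval 1.94 to 3.75), with an edgeR p of 0.0003 and adjusted p values of 0.129 with edgeR, 4.98e-09 with DESeq2 and 0.251 with limma voom. CHGB ranked 52 by log2 fold change.

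**Figure D1:**
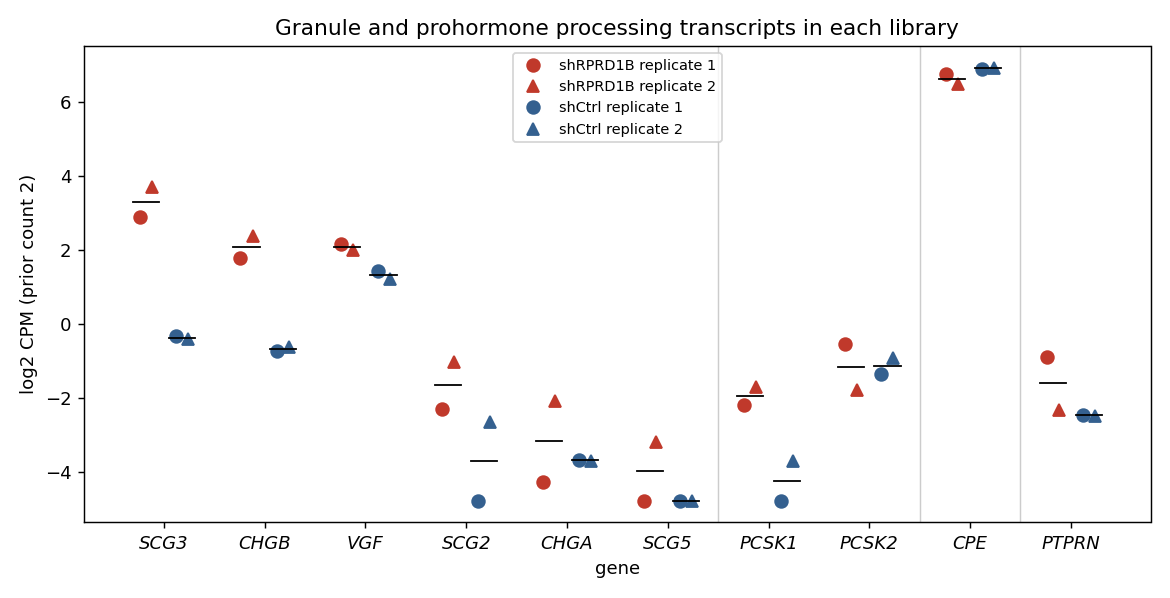
Level of each of the 10 granule genes in each library as log2 CPM with a prior count of 2 (vertical axis), with shRPRD1B in red and shCtrl in blue, circles for replicate 1, triangles for replicate 2 and a bar at each group's mean. SCG3 and CHGB show the widest gaps of the 5 genes tested, with shRPRD1B at 7.42 and 12.9 CPM and shCtrl at 0.76 and 0.719 CPM for SCG3, and CPE is the abundant gene.

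VGF, a granin-like precursor cut into several neuropeptides, was the third member with both knockdown libraries above both control libraries and an unadjusted edgeR p under 0.05. VGF (ENSG00000128564.8, chromosome 7, 101162509 to 101169952, minus strand) had 293 and 216 counts in shRPRD1B, against 126 and 112 counts in shCtrl. Its level was 4.47 and 3.94 CPM in shRPRD1B 1 and 2, against 2.66 and 2.3 CPM in shCtrl 1 and 2, and shRPRD1B 1 was the highest library, unlike for SCG3 and CHGB. The log2 fold change was 0.76 ± 0.23 (95% interval 0.21 to 1.32), with an edgeR p of 0.0157, an edgeR adjusted p of 0.577 and a DESeq2 adjusted p of 0.396.

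The other 3 granins were too scarce for the test and are given by their counts. SCG2, the precursor of secretoneurin (ENSG00000171951.5, chromosome 2, 223596940 to 223602361, minus strand), had 11 and 25 counts in shRPRD1B 1 and 2, against 0 and 6 counts in shCtrl 1 and 2. Both knockdown libraries stood above both control libraries, and the ratio of the pooled levels was 4.79, with a counting interval from 2 to 13.9. The count of 0 in shCtrl 1 allows a level of up to 0.0633 CPM at a floor of 3 counts. CHGA, the classical chromogranin of chromaffin and other neuroendocrine cells (ENSG00000100604.13, chromosome 14, 92922664 to 92935285, plus strand), had 1 and 11 counts in shRPRD1B, against 2 and 2 counts in shCtrl. The CHGA groups overlapped, since only shRPRD1B 2 exceeded the controls, and its ratio of 2.39 had a counting interval from 0.726 to 10.2. SCG5, a chaperone of the convertase PCSK2 (ENSG00000166922.9, chromosome 15, 32641710 to 32697092, plus strand), had 0 and 4 counts in shRPRD1B, against 0 and 0 counts in shCtrl, too few to compare.

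Summed over the 6 granins, the level was 15.5 and 22.8 CPM in shRPRD1B, against 4.03 and 3.8 CPM in shCtrl. SCG3 and CHGB together made up 69.9% and 79.5% of that sum in shRPRD1B, against 33% and 35.1% in shCtrl. The 4 other granins, of which VGF was the most abundant, summed to 4.65 and 4.67 CPM in shRPRD1B, against 2.7 and 2.47 CPM in shCtrl. The granin with the highest CPM was therefore SCG3 in both knockdown libraries and VGF in both control libraries.

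The convertases, which cut the precursors, stood under 1 CPM in all libraries. PCSK1 (ENSG00000175426.11, chromosome 5, 96390333 to 96433248, minus strand) had 12 and 15 counts in shRPRD1B 1 and 2, against 0 and 2 counts in shCtrl 1 and 2. Both knockdown libraries were above both controls, and the ratio of the pooled levels was 10.8 with a counting interval from 2.71 to 93.5, too wide to fix its size. PCSK2 (ENSG00000125851.10, chromosome 20, 17226107 to 17484578, plus strand) had 43 and 14 counts in shRPRD1B, against 17 and 24 counts in shCtrl. PCSK2 was at its highest in shRPRD1B 1 and at its lowest in shRPRD1B 2, so the groups overlapped completely. Its log2 fold change was 0.14 ± 0.57 (95% interval -1.26 to 1.54, edgeR adjusted p = 0.957), an interval that holds more than a doubling in either direction, and it turned to -0.73 without shRPRD1B 1 and -0.08 without shCtrl 1.

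CPE, the carboxypeptidase that also acts as a sorting receptor for some prohormones, was the abundant member and the one that stood lower in knockdown cells. CPE (ENSG00000109472.14, chromosome 4, 165379008 to 165498547, plus strand) had 7018 and 4845 counts in shRPRD1B, against 5621 and 5883 counts in shCtrl. Its level was 107 and 88.4 CPM in shRPRD1B 1 and 2, against 119 and 121 CPM in shCtrl 1 and 2 (means 97.7 ± 13.2 and 120 ± 1.57 CPM, SD, n = 2 each). The groups did not overlap and shRPRD1B was the lower, but the gap between shRPRD1B 1 and shRPRD1B 2 was wider than the gap from shRPRD1B 1 to the controls. The log2 fold change was -0.29 ± 0.13 (95% interval -0.62 to 0.04), and neither edgeR (adjusted p = 0.685) nor DESeq2 (adjusted p = 0.862) called it. CPE alone held 86.4% and 79% of the summed CPM of the 10 genes in shRPRD1B, against 96.3% and 96.4% in shCtrl. The sum over all 10 was 124 and 112 CPM in shRPRD1B, against 123 and 125 CPM in shCtrl, while the sum without CPE was 16.8 and 23.5 CPM in shRPRD1B, against 4.54 and 4.48 CPM in shCtrl.

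PTPRN, a catalytically inactive phosphatase-like protein of the granule membrane (ENSG00000054356.14, chromosome 2, 219289623 to 219309401, minus strand), had 33 and 9 counts in shRPRD1B 1 and 2, against 7 and 7 counts in shCtrl 1 and 2. Most of its counts were in shRPRD1B 1, and shRPRD1B 2, at 0.164 CPM, lay only just above the shCtrl libraries at 0.148 and 0.144 CPM. The ratio of pooled levels was 2.39, with a counting interval from 1.28 to 4.75 that leaves out the spread between libraries.

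Of all 10 genes, 6 had both shRPRD1B libraries above both shCtrl libraries (CHGB, SCG2, SCG3, VGF, PCSK1 and PTPRN), 1 had both below (CPE) and 3 overlapped (CHGA, SCG5 and PCSK2). SCG2, PCSK1 and PTPRN were too scarce for the test and were separated by few counts. No share over genes this scarce was computed, so the count of 6 has no background to be read against. Among the 5 tested, each of which had at least 14 counts in every library, 3 had both above, where 20.3% of all tested genes did, and 1 had both below, where 20.6% did. EdgeR called 0 of the 5 higher or lower, where it called 0.0295% of tested genes higher and 0.0689% in either direction. DESeq2 called 2 of the 5 higher (SCG3 and CHGB), where it called 0.62% of tested genes higher, and 0 of the 5 lower, where it called 0.561%. At an unadjusted edgeR p under 0.05 there were 3 higher (SCG3, CHGB and VGF), against 3.55% of tested genes, and 0 lower, against 3.94%. The median log2 fold change of the 5 was 0.76 and that of all tested genes 0.00, a description of genes picked with earlier results of these data known.

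**Figure D2:**
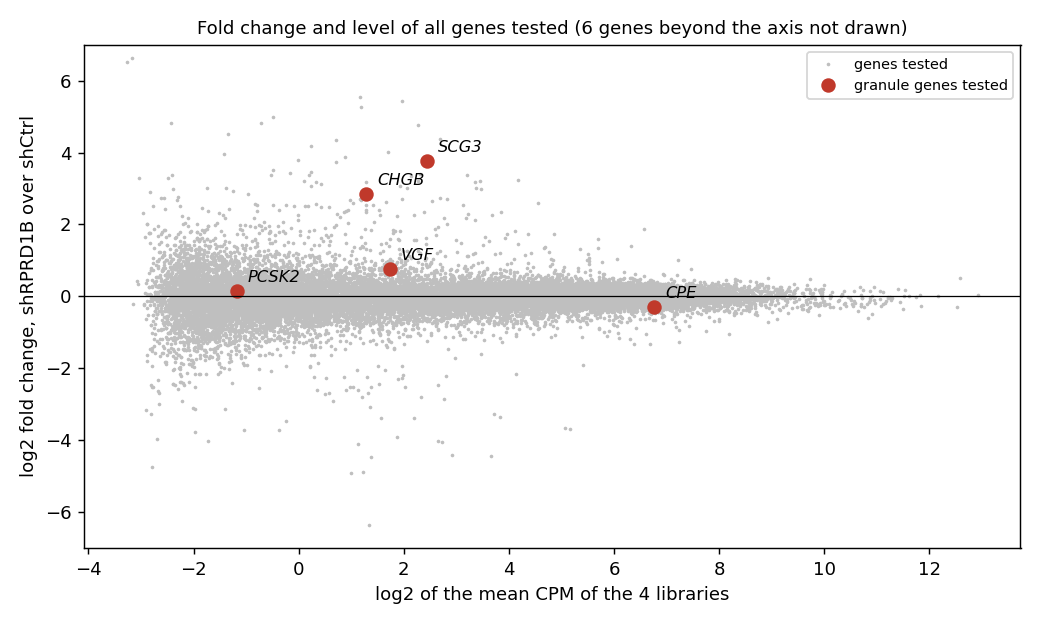
Log2 fold change of shRPRD1B over shCtrl (vertical axis) against the log2 of the mean CPM of the 4 libraries (horizontal axis) for the genes tested (grey) and the granule genes tested (red); 6 genes beyond the axis were not drawn. SCG3 (3.77) and CHGB (2.84) lie at the upper edge of the genes, VGF (0.76) inside the upper part, and PCSK2 (0.14) and CPE (-0.29) near 0.

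How firmly each gene was called depended on which libraries entered. SCG3 was called higher by edgeR in each fit that left out 1 library: without shRPRD1B 1 (log2 fold change 4.12, edgeR adjusted p = 3.85e-08, where 14.6% of genes were called higher), without shRPRD1B 2 (3.33, adjusted p = 6.61e-07, 5.91% of genes), without shCtrl 1 (3.81, adjusted p = 0.0139, 0.0912% of genes) and without shCtrl 2 (3.73, adjusted p = 0.0124, 0.0547% of genes). Such a fit has a group of 1 library, whose variance is taken from the remaining pair, and the fits without a shRPRD1B library rest on the closer shCtrl pair. CHGB was called without shRPRD1B 1 (3.12, adjusted p = 4.57e-06) and without shRPRD1B 2 (2.52, adjusted p = 9.98e-05) but not without shCtrl 1 (2.79, adjusted p = 0.146) or shCtrl 2 (2.90, adjusted p = 0.119), all with edgeR. VGF was called in the same pair of fits (0.67, edgeR adjusted p = 0.042 without shRPRD1B 1; 0.85, adjusted p = 0.02 without shRPRD1B 2). CPE was called lower only without shRPRD1B 1 (-0.44, edgeR adjusted p = 0.000247), in a fit that called 14.4% of genes lower, and stood at -0.16 without shRPRD1B 2.

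**Figure D3:**
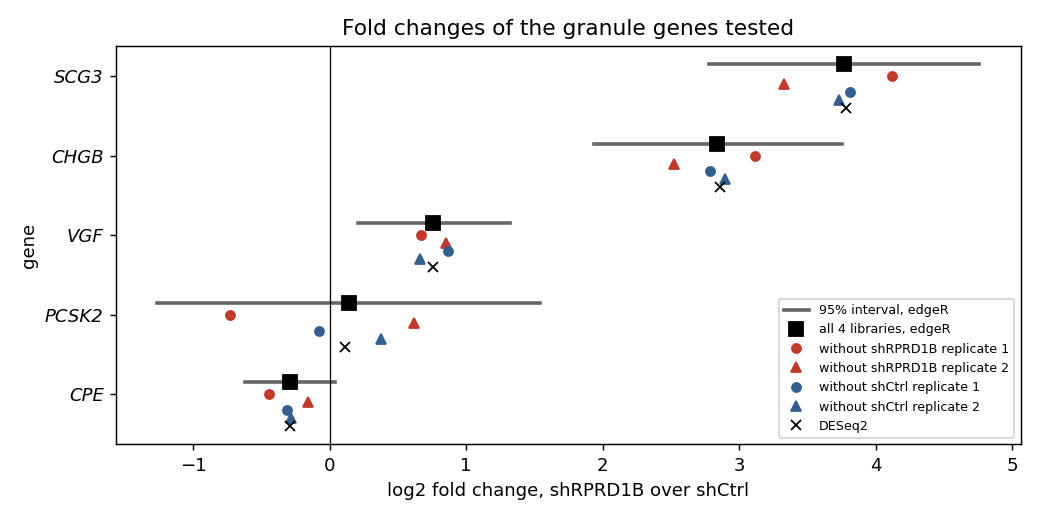
Log2 fold change of shRPRD1B over shCtrl (horizontal axis) of the 5 granule genes tested, with the edgeR value from all 4 libraries (square) and its 95% interval (grey line), the value without each library in turn (coloured points) and the DESeq2 value (cross). SCG3 ran from 3.33 to 4.12 and CHGB from 2.52 to 3.12 without 1 library, whereas PCSK2 lay on both sides of 0.

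With the low-count filter removed, all 10 genes entered the edgeR fit, over 37763 genes, and 9 of the 10 had a positive fold change, where 50.7% of all genes in that fit did. SCG5 had counts in shRPRD1B 2 alone, so its sign was fixed by its entry into the fit. CHGA, SCG2, PCSK1 and PTPRN added signs from few counts. The count of 9 therefore supports nothing about direction. SCG3 (adjusted p = 0.0194) and CHGB (adjusted p = 0.0468) were then called higher by edgeR, where 0.0609% of genes were. SCG5, with 4 counts in all, gave 3.95 ± 3.25, PCSK1 3.30 ± 1.11, SCG2 2.23 ± 1.05, PTPRN 1.24 ± 0.74 and CHGA 1.22 ± 1.23. None of these 5 was called, with an edgeR adjusted p of 0.772 for PCSK1 and 0.801 for the other 4.

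To set one gene against another, counts were scaled to the length of 1 GENCODE 29 transcript per gene and then to a common library total (a TPM-like level). CPE led in both groups, at 87.9 in shRPRD1B and 103 in shCtrl. In shRPRD1B it was followed by SCG3 at 6.79 (4.68 and 8.9 in the 2 libraries), CHGB at 3.72 (2.79 and 4.64) and VGF at 3.56 (3.63 and 3.5). In shCtrl it was followed by VGF at 2 (2.11 and 1.88), CHGB at 0.483 (0.457 and 0.51) and SCG3 at 0.463 (0.469 and 0.457). CHGB and VGF overlapped in shRPRD1B, as did SCG3 and CHGB in shCtrl, so their order there is not beyond the spread. The other 6 genes stood at no more than 0.27 in shRPRD1B and 0.187 in shCtrl on this scale.

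Genes within 250 kb of the members were read in the same fit. At an unadjusted edgeR p under 0.05, 3.55% of all tested genes were higher and 3.94% lower. Within 250 kb of SCG3, 8 genes were tested, 0 of them at an unadjusted edgeR p under 0.05, with log2 fold changes from -0.39 to 0.55 and a median of 0.13. Around CHGB, 6 genes were tested, 0 of them under 0.05, from -0.36 to 0.33 with a median of 0.10. Around VGF the 10 tested genes ran from -0.53 to -0.00, and 2 were under 0.05, so VGF's own value of 0.76 lay on the other side of 0. Around PTPRN, 2 of 25 tested genes were under 0.05, among them TMEM198 at a mean of 38.2 CPM in shRPRD1B and 18.8 CPM in shCtrl (1.02 ± 0.14, adjusted p = 0.147 with edgeR and 2.5e-06 with DESeq2). Around CHGA, 0 of 5 were under 0.05, and MOAP1 gave 3.07 ± 1.58. The 5 other regions held 1 to 4 tested genes each, 0 of them under 0.05. Genes annotated on top of the members had 0 to 4 counts in any library, except the pseudogene HADHAP1 within CPE (20 and 10 counts in shRPRD1B, against 18 and 18 in shCtrl); the sources used here do not say whether counting used the strand.

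Other enzymes that cut or finish precursors had mostly small, negative fold changes. Of 23 listed, 21 were tested, 6 with a positive and 15 with a negative log2 fold change (median -0.09). Among all tested genes, 50.5% were positive. Of the 21, 2 had both knockdown libraries above and 9 both below the controls, where 20.3% and 20.6% of all tested genes did. EdgeR called 0 of them, and DESeq2 called 2 lower (0.561% of all tested genes) and 0 higher (0.62%), the same 2 that were lower at an unadjusted edgeR p under 0.05. QPCT, which turns N-terminal glutamine into pyroglutamate, had 11.2 and 9.23 CPM in shRPRD1B, against 18.3 and 16.7 CPM in shCtrl (-0.77 ± 0.17, adjusted p = 0.411 with edgeR and 0.0247 with DESeq2). SPCS3, a subunit of the signal peptidase that removes signal peptides in the endoplasmic reticulum, had 74.2 and 90.7 CPM in shRPRD1B, against 130 and 132 CPM in shCtrl (-0.67 ± 0.14, adjusted p = 0.382 with edgeR and 0.0134 with DESeq2). The gene for carboxypeptidase M gave -0.41 ± 0.17 (edgeR adjusted p = 0.677). FURIN, the convertase of the constitutive pathway, had 101 and 85.5 CPM in shRPRD1B, against 115 and 114 CPM in shCtrl (-0.30 ± 0.13, edgeR adjusted p = 0.679).

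Among 40 listed genes of granule biogenesis, membrane and exocytosis, 36 were tested. Of these, 21 had a positive and 15 a negative log2 fold change (median 0.10), where 50.5% of all tested genes were positive. At an unadjusted edgeR p under 0.05 there were 8 higher and 1 lower, where 3.55% and 3.94% of all tested genes were. PTPRN2 and SYT4, 2 of the 8, passed the low-count filter only through the shRPRD1B libraries, where they were high. SV2C, also among the 8, had 26 and 27 counts in shRPRD1B, against 10 and 2 counts in shCtrl. Its shCtrl libraries alone would not have passed the filter either. The place of PTPRN2, SYT4 and SV2C among the 8 therefore supports nothing. EdgeR called 0 of the list after adjustment, and DESeq2 called 1 higher (0.62% of all tested genes). That gene was RAB3C, a small GTPase of regulated exocytosis, with 11.6 and 10.9 CPM in shRPRD1B, against 3.04 and 2.53 CPM in shCtrl (2.02 ± 0.20, adjusted p = 0.0775 with edgeR and 2.09e-13 with DESeq2). PTPRN2, the paralogue of PTPRN, had 27 and 36 counts in shRPRD1B, against 2 and 4 counts in shCtrl (3.03 ± 0.67, edgeR adjusted p = 0.41), and SYT4, a vesicle protein of the synaptotagmin family, had 24 and 57 counts in shRPRD1B, against 4 and 0 counts in shCtrl (3.96 ± 1.12, edgeR adjusted p = 0.525). SYTL5, a synaptotagmin-like Rab effector, ran the other way, with 2.49 and 1.42 CPM in shRPRD1B, against 4.52 and 4.79 CPM in shCtrl (-1.23 ± 0.30, edgeR adjusted p = 0.481). SLC18A1, the monoamine transporter of chromaffin granules, and SYT10 were at 0 counts in all libraries.

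The listed precursors of peptide hormones and neuropeptides had mostly negative fold changes, opposite in sign to those of SCG3 and CHGB. Of 61 listed precursors of peptide hormones and neuropeptides, 25 had no more than 3 counts in any library, 15 of them 0 throughout, and 26 were tested. Of the 26, 6 had a positive and 20 a negative log2 fold change (median -0.27), where 50.5% of all tested genes were positive. Both knockdown libraries lay above the controls for 0 genes and below them for 10 (20.3% and 20.6% of all tested genes), 5 were lower and 0 higher at an unadjusted edgeR p under 0.05 (3.94% and 3.55%), and edgeR and DESeq2 called 0. NTS, the precursor of neurotensin, had 0.198 and 0.109 CPM in shRPRD1B, against 0.633 and 0.658 CPM in shCtrl (-2.02 ± 0.48, edgeR adjusted p = 0.46). CALCB, which encodes a calcitonin gene-related peptide and was the most abundant of the 4 with the smallest p, had 14.7 and 10.5 CPM in shRPRD1B, against 22.4 and 20.2 CPM in shCtrl (-0.75 ± 0.20, edgeR adjusted p = 0.528). NPY gave -1.28 ± 0.35 (edgeR adjusted p = 0.546) and NPW -1.15 ± 0.39 (edgeR adjusted p = 0.631), both from levels under 2 CPM in every library. The median of this list was -0.55 without shRPRD1B 1 and -0.07 without shRPRD1B 2, and it was furthest from 0 in the fit that kept shRPRD1B 2 alone.

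**Figure D4:**
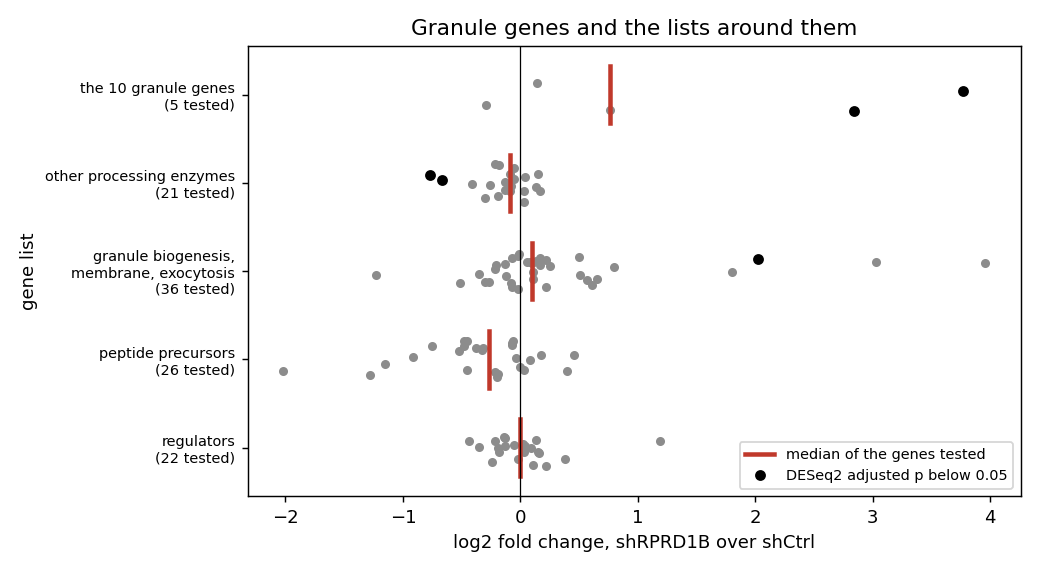
Log2 fold change of shRPRD1B over shCtrl (horizontal axis) for each tested gene (points) of the 10 granule genes and of 4 lists around them, with the median of each list (red bar) and the genes DESeq2 called in black. The list medians were 0.76, -0.09, 0.10, -0.27 and -0.00 from top to bottom.

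Regulators tied to neuroendocrine transcription were split evenly by sign. Of 31 listed, 22 were tested, 11 in each direction (median -0.00), with 2 lower and 0 higher at an unadjusted edgeR p under 0.05 (3.94% and 3.55% of all tested genes) and 0 called by edgeR or DESeq2. CREM, a factor that binds the cAMP response element, had 26.1 and 20.2 CPM in shRPRD1B, against 31.2 and 31.8 CPM in shCtrl (-0.44 ± 0.16, edgeR adjusted p = 0.656). GATA3, which acts in chromaffin and other lineages, had 23.3 and 27.2 CPM in shRPRD1B, against 32.4 and 32.1 CPM in shCtrl (-0.35 ± 0.14, edgeR adjusted p = 0.66). RCOR1, a corepressor of REST, gave 0.38 ± 0.19 (edgeR adjusted p = 0.696) and POU3F2, a neural POU-domain factor, 0.22 ± 0.11 (edgeR adjusted p = 0.704). REST itself, named after its values were seen, had 33.7 and 46.2 CPM in shRPRD1B, against 39.7 and 47.9 CPM in shCtrl, so the groups overlapped (-0.13 ± 0.19, edgeR adjusted p = 0.862).

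Markers of other cell types were read beside these values. The 12 neuroendocrine and chromaffin markers, 9 of them tested, summed to 397 and 301 CPM in shRPRD1B, against 432 and 406 CPM in shCtrl, and DBH, the chromaffin enzyme that makes noradrenaline, stood at 0.29 and 0.237 CPM in shRPRD1B, against 0.296 and 0.349 CPM in shCtrl. SLC18A1 of that list was at 0 in all libraries. Of the 9 tested, 4 had a positive and 5 a negative log2 fold change (median -0.02), where 50.5% of all tested genes were positive. ENO2 had 43.5 and 18.2 CPM in shRPRD1B, against 31.6 and 31.7 CPM in shCtrl. INSM1 had 18.8 and 9.01 CPM in shRPRD1B, against 16.4 and 16.5 CPM in shCtrl. For ENO2 and INSM1 the groups overlapped. NCAM1 had 27.3 and 28 CPM in shRPRD1B, against 26.9 and 27.1 CPM in shCtrl. In that list SYP, a membrane protein of synaptic vesicles, was higher, as SCG3 and CHGB were, at 77.3 and 78 CPM in shRPRD1B, against 27.5 and 24.2 CPM in shCtrl (1.59 ± 0.13, edgeR adjusted p = 0.0434). UCHL1, a ubiquitin hydrolase that makes up most of the sum, stood the other way, at 226 and 165 CPM in shRPRD1B, against 327 and 303 CPM in shCtrl (-0.69 ± 0.17, adjusted p = 0.49 with edgeR and 0.049 with DESeq2). The 12 neuron markers, 10 of them tested, summed to 292 and 233 CPM in shRPRD1B, against 259 and 251 CPM in shCtrl. Of the 10, 7 had positive fold changes (median 0.49), where 50.5% of all tested genes did, and 3 negative ones (NEFL, NEFM and TUBB3). At an unadjusted edgeR p under 0.05, 4 were higher and 0 lower (3.55% and 3.94% of all tested genes). ELAVL4, 1 of these 4, passed the filter only through shRPRD1B. DESeq2 called 1 of the 10 higher (INA, DESeq2 adjusted p = 0.0236), where it called 0.62% of tested genes higher. The part of these marker genes in the SCG3 and CHGB values was not tested. Leukocyte markers (6 listed, 2 tested) summed to 4.18 and 2.63 CPM in shRPRD1B, against 4.18 and 4.19 CPM in shCtrl. Fibroblast markers (7 listed, 4 tested) summed to 25.5 and 23.5 CPM in shRPRD1B, against 38.9 and 34.6 CPM in shCtrl, with COL1A2 at 0 in all libraries. Most of that sum was COL1A1, at 20.1 and 19.4 CPM in shRPRD1B, against 32.9 and 27.3 CPM in shCtrl (-0.61 ± 0.15, edgeR adjusted p = 0.47), and DESeq2 called LUM lower (-1.63, DESeq2 adjusted p = 0.0217). Endothelial markers (5 listed, 1 tested) summed to 0.87 and 0.62 CPM in shRPRD1B, against 1.1 and 1.15 CPM in shCtrl.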

How the data were processed

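Values are the authors' deposited gene-level read counts, not normalised, with 1 file per library. Per the submitters' processing notes, the tools named are Trim Galore, HISAT2 and featureCounts, and the genome build is hg38. Their versions, the gene annotation, whether the strand was used and how multiply mapped reads were counted are not stated in those notes. Some widely used genes had almost no counts (EHMT2 had 0.534 and 0 CPM in shRPRD1B, against 0.0422 and 0.205 CPM in shCtrl), so a low count does not show a low level.

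Counts were used as deposited. Of 69222 identifiers, 62686 matched a symbol through the reference tables (RefSeq, GRCh38.p14), and 58318 had a GENCODE 29 length. The 6536 without a symbol stayed in the tests. Differences were tested with edgeR 4.0.16 in R 4.3.3 (quasi-likelihood fit with robust estimation, TMM factors, filterByExpr with a minimum count of 10, group as the only term, and Benjamini-Hochberg adjustment over 20319 genes at a threshold of 0.05). DESeq2 1.42.0, limma voom 3.58.1, other scalings and filters, the replicate number as a block and leaving out each library were alternatives; edgeR's older fit was added after seeing the data. CPM values use TMM-scaled library sizes. A chi-square comparison of the libraries within a group gave 87 per degree of freedom in shRPRD1B and 8.18 in shCtrl, far above sampling noise, so none was a duplicate. No exact two-sided permutation p under 0.333 is possible with 2 against 2.

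The members and all lists were chosen with earlier results of these data known. Named genes were the 10 members, RPRD1B and up to 4 genes per list with the smallest edgeR p. REST, DBH, SYP, SLC18A1, SYT10, COL1A1, COL1A2, LUM, UCHL1, ELAVL4, TMEM198 and MOAP1 are exceptions, named after their values were seen. EHMT2, HADHAP1, VIM, LHX1, SV2C, INA, NEFL, NEFM, TUBB3, ENO2, INSM1 and NCAM1 are exceptions of the same kind. A planned description of the proteins was not made. A gene of the lists is not reported here.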

Additional observations from a re-analysis of the deposited data

How the results depend on the processing

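Over all genes, edgeR called 6 higher and 8 lower in shRPRD1B. The counts were 126 and 114 with DESeq2, 0 and 0 with limma voom, 23 and 17 with no low-count filter, 0 and 0 with at least 5 CPM in 2 libraries, and 85 and 56 with the replicate number as a block; edgeR's older fit called 3 lower. Leaving out 1 library gave between 12 and 3139 higher and between 36 and 3096 lower. Of the granule genes tested, 0 were called by edgeR, against 2 with DESeq2, 2 with no low-count filter and 2 with the replicate block (SCG3 at 3.75, edgeR adjusted p = 0.000292, and CHGB at 2.84, edgeR adjusted p = 0.00327), and between 1 and 6 without 1 library. Without shRPRD1B 1 the 6 called were CHGB, PCSK1, SCG2, SCG3 and VGF higher and CPE lower; PCSK1 and SCG2 passed that fit's filter only through shRPRD1B 2, where they are high, so their calls support nothing. The number with a positive fold change, 4 of 5, was 3 of 5 with limma voom, 9 of 10 with no filter and 1 of 2 with at least 5 CPM. Without 1 library it was 5 to 7, with 6 to 8 granule genes tested. The filter and the libraries kept thus changed which granule genes were tested. The median log2 fold change of the granule genes tested, 0.76, was 1.74 with no filter, 1.73 with at least 5 CPM, and 1.26 to 2.82 without 1 library. With no filter or without 1 library, the genes that joined had few or no counts in shCtrl. Without 1 library they passed the filter only through shRPRD1B, where they are high. The sign counts and higher medians of those fits therefore support nothing. RPRD1B stayed at -0.68 with DESeq2, which called it, and ran from -0.88 to -0.50 without 1 library. PCSK2 turned to -0.00 with limma voom, -0.08 without shCtrl 1 and -0.73 without shRPRD1B 1 (0.62 without shRPRD1B 2, the highest), none of them called; the cause was not tested. The groups share replicate numbers, and the deviations of same-numbered libraries correlated at 0.151 over 11541 genes, but with 2 pairs the number may be no more than a number. Scaling by DESeq2-type size factors, upper quartiles or library size called 0 of the granule genes. At this depth the ratios of SCG2, PCSK1, PTPRN and CHGA are limited by their few counts.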
